A study of Mus musculus with 24 samples.

Results

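Galanin (*Gal*), *Map3k21*, *Bcan*, *Xlr3b* and *Gm12519* are the 5 transcripts, of 55335 counted in every library, examined here across genotype, culture day and replicate in primary mouse osteoblasts (OBs). They were picked because their RNASeq counts were much lower in Het than in WT cultures at days 14 and 21, so every Het against WT value of these genes is a description and carries no test. WT cultures came from parietal bones of pups 4 to 5 days old on the C57BL/6J background. Het cultures came from pups of the same age heterozygous for the G610C allele, B6.129(FVB)-Col1a2tm1Mcbr/J kept on C57BL/6J, in which a cysteine replaces a glycine in the triple helix of the procollagen α2(I) chain. Both genotypes underwent osteogenic differentiation, and RNA was taken on day 8, day 14 and day 21 of culture. There were 24 libraries, 4 for each genotype on each day. Cells of several pups of 1 genotype were pooled before plating, so the spread between wells does not measure the spread between animals, and a lower level in bulk RNA can mean fewer cells making a transcript or less transcript per cell, which cannot be told apart.

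The 5 genes have little in common in function. *Gal* encodes the precursor of galanin, a secreted neuropeptide that is cut from its prohormone and acts on G protein-coupled receptors. *Map3k21* encodes a mixed lineage kinase, a class of MAP kinase kinase kinases best known for signalling towards the stress kinase JNK. *Bcan* encodes brevican, a chondroitin sulphate proteoglycan of the lectican family that binds hyaluronan through an N-terminal link domain and is best known from brain matrix. *Xlr3b* belongs to a family of near-identical X-linked genes related to *Sycp3*, a protein of meiotic chromosomes, and is known as an imprinted gene in mouse brain. *Gm12519* is annotated as a long intergenic non-coding RNA, for which no function is stated here.

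The genes lie on 5 chromosomes. On GRCm38, the assembly also called mm10, *Gal* (ENSMUSG00000024907.7) occupies chr19:3409915-3414544 on the minus strand with 788 exonic bases, and *Map3k21* (ENSMUSG00000031853.5) chr8:125910450-125947440 on the plus strand with 5693. *Bcan* (ENSMUSG00000004892.13) is at chr3:87987531-88000230 on the minus strand with 4064 exonic bases. *Xlr3b* (ENSMUSG00000073125.10) is at chrX:73192207-73202930 on the plus strand with 3780 exonic bases, and *Gm12519* (ENSMUSG00000085643.1) at chr4:55969023-55993739 on the minus strand with 693. The counts cover whole genes, exons and UTRs together. Of all 50-base stretches in the transcripts, 0% were shared with another gene for *Gal*, *Map3k21*, *Bcan* and *Gm12519*. For *Xlr3b*, 56.6% were shared with at least 1 other gene, 42.8% with *Xlr3a* and 26.3% with *Xlr3c* (a stretch can be shared with several), so its counts depend on how reads matching several genes were treated, which is not given in the sources used here. The span of *Xlr3b* also crosses that of *Xlr5a* on the other strand, with 0 exonic bases in common.

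Because the genes were low together in Het, the 250 bases before their RefSeq start sites (GRCm38.p6) were searched on both strands. The search was for 7 short motifs: TGACGTCA (CRE), TGANTCA (AP-1), TGATGNAA, TGTGGT (RUNX), GGGCGG (GC box), TATAAA and CCAAT. None occurred in all 5 promoters. The GC box, present in 32.7% of 32851 mouse promoter windows, occurred in *Gal*, *Map3k21* and *Bcan*. The CCAAT box, present in 33.8%, occurred in *Bcan* and *Xlr3b*. The *Gm12519* window, set by RefSeq and not by the counted gene model, held none of the 7 and no CpG dinucleotide in the 250 bases before that start, against 11 in *Gal*, 16 in *Bcan* and a median of 6 over all windows. Below, the 250 bases before the start of *Gal* (chr19:3414545-3414794, minus strand), *Bcan* (chr3:88000357-88000606, minus strand) and *Gm12519* (chr4:56000823-56001072, minus strand, the first of its 2 RefSeq starts, which lie kilobases upstream of the start of the GENCODE model that was counted) are written to show this contrast, 5′ to 3′ along the transcribed strand, with the GC box (either strand) and the CCAAT box in capitals. A match is a description of letters and not of factor binding.
Gal: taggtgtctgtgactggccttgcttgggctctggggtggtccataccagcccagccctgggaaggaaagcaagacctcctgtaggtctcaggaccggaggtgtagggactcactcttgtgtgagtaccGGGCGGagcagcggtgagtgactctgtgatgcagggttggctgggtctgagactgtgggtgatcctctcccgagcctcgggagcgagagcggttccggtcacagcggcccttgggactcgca
Bcan: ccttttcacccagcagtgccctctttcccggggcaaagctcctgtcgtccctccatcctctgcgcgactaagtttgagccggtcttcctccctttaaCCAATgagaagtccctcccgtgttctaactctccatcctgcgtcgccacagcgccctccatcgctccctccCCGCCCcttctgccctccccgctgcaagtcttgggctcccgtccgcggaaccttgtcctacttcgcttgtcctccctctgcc
Gm12519: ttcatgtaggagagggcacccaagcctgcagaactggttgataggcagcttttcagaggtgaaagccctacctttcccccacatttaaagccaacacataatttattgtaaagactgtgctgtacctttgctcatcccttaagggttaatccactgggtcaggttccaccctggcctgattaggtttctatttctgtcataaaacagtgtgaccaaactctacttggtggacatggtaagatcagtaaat

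Library totals ranged from 17140202 to 59734231 counts (median 48340136), and the 6 libraries numbered replicate 1, which carry another style of name, were shallower (17140202 to 25825762) than the 18 of replicates 2 to 4 (28159342 to 59734231). The methods describe 2 culture experiments with cells of different litters, which also differed in plating density and early oxygen. They give fewer wells per genotype and day than the 4 libraries here, and the labels do not say which library came from which experiment. Levels are given as RQ, a relative quantity for which each library's counts were scaled to its own geometric mean of 4 housekeeping genes (*Sdha*, *Mrfap1*, *Actb*, *Actg1*), here multiplied by 1000. All 7 OB markers (*Col1a1*, *Col1a2*, *Runx2*, *Sp7*, *Ibsp*, *Alpl* and *Bglap*) were counted, with a summed RQ of at least 32281 in every library.

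*Gal* had the largest ratio of WT to Het of the 5 genes at days 14 and 21. At day 14, *Gal* RQ was 24.7, 27.8, 27.0 and 27.8 in WT replicates 1 to 4 and 3.97, 3.05, 2.66 and 3.02 in Het. By day 21 it was 49.5, 30.1, 27.2 and 35.4 in WT and 11.7, 4.44, 4.61 and 3.59 in Het. Every late Het library lay below every WT library, and Het replicate 1 at day 21 stood above the other Het libraries. At day 8 the neuropeptide transcript was scarce in both genotypes, at 0.686, 1.02, 1.09 and 0.586 in WT and 0.569, 0.169, 0.110 and 0.226 in Het, or 3 to 28 counts per library. The mean WT level was 8.44 times that of Het at day 14, 5.85 times at day 21 and 3.15 times at day 8. *Gal* was lowered rather than absent in Het, with 35 to 118 counts in each of the 8 late Het libraries.

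*Map3k21*, the kinase gene, was also lower in every Het library than in every WT library at days 14 and 21, a property its choice used. The same held at day 8, as for 3.61% of genes tested. Its RQ at day 14 was 21.1, 20.1, 18.2 and 17.6 in WT and 12.6, 5.88, 4.56 and 3.78 in Het. By day 21 it was 18.2, 16.2, 16.8 and 17.7 in WT against 10.5, 3.70, 3.93 and 3.81 in Het. Replicate 1 was the highest Het library on both days, while WT replicates stayed within a narrow band. At day 8, WT held 6.60, 5.92, 5.73 and 6.24 and Het 5.19, 1.55, 1.91 and 2.71. The WT mean exceeded the Het mean by 2.87 times at day 14, 3.14 times at day 21 and 2.15 times at day 8.

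*Bcan*, encoding the hyaluronan-binding proteoglycan, stood at 38.2, 32.6, 28.7 and 30.2 in WT at day 14 and at 16, 11.2, 4.71 and 6.39 in Het. Day 21 values were 24.6, 25.9, 24.1 and 24.5 in WT and 15.3, 9.03, 7.82 and 13.3 in Het. The genotypes did not overlap, but the Het libraries varied more than the WT libraries (SD 3.54 against 0.802 at day 21, n = 4 each). Day 8 WT libraries held 5.32, 5.30, 5.25 and 3.65, and Het libraries 3.2, 0.439, 0.773 and 1.58. The ratio of WT to Het means was 3.39 at day 14, 2.18 at day 21 and 3.25 at day 8.

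*Xlr3b* differed between genotypes at days 14 and 21, and at day 8 in replicates 2 to 4 alone. Its RQ at day 14 was 9.04, 5.29, 5.44 and 5.69 in WT and 2.61, 1.19, 0.803 and 0.630 in Het. By day 21, WT libraries held 6.52, 4.78, 7.56 and 6.70 and Het libraries 4.36, 1.20, 0.953 and 1.11. Replicate 1 at day 21 came close to the lowest WT library without reaching it. At day 8 the WT values were 4.80, 4.49, 3.91 and 3.62 and the Het values 5.19, 0.574, 0.589 and 1.29, so the groups overlapped and Het replicate 1 was above all WT libraries. With replicates 2 to 4 alone, the WT mean was 4.90 times the Het mean at day 8, 6.26 times at day 14 and 5.84 times at day 21.

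*Gm12519*, the non-coding RNA, had the smallest ratio of the 5 over days 14 and 21. At day 14 its RQ was 5.30, 5.13, 4.86 and 5.47 in WT and 1.59, 2.68, 3.03 and 2.25 in Het. By day 21 it was 3.69, 5.80, 6.14 and 5.0 in WT and 2.57, 2.62, 1.83 and 2.59 in Het. The genotypes did not overlap on either day, and WT means were 2.17 and 2.15 times those of Het. At day 8 *Gm12519* was near the limit of detection, with 0, 9, 13 and 2 counts in WT replicates 1 to 4 and 0, 1, 1 and 2 in Het. The 0 in replicate 1 allows an RQ of up to 0.257 in WT and 0.213 in Het, counting error only, so no Het against WT ratio is given for day 8.

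**Figure D1:**
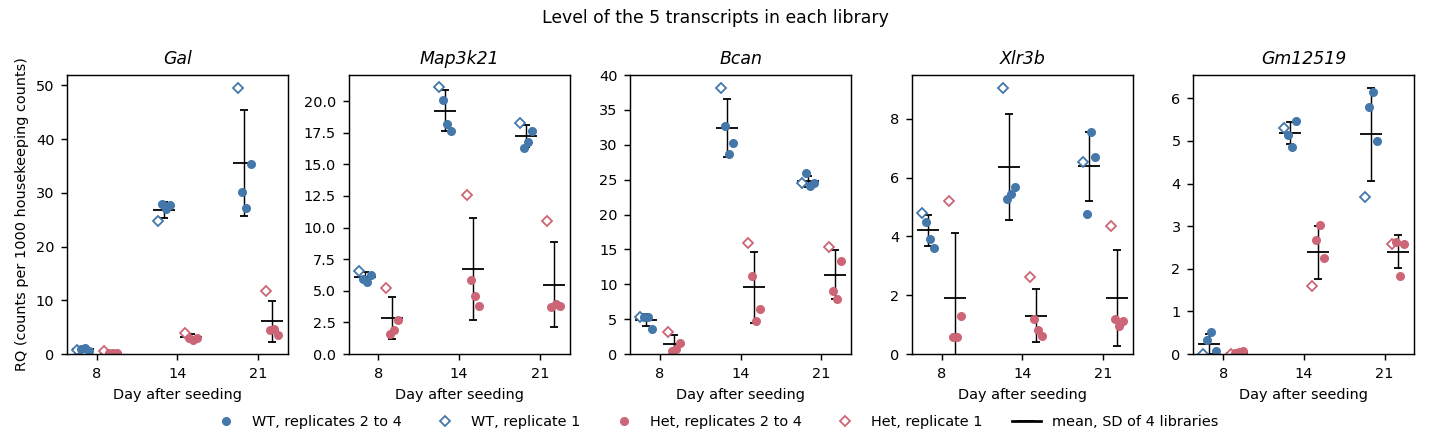
RQ (counts per 1000 housekeeping counts) of *Gal*, *Map3k21*, *Bcan*, *Xlr3b* and *Gm12519* in each of 24 libraries by day after seeding, WT in blue and Het in red, with replicate 1 as open diamonds and the mean and SD of 4 libraries as black bars. All Het libraries sit below all WT libraries at days 14 and 21, and Het replicate 1 is the highest Het library at both days for *Gal*, *Map3k21*, *Bcan* and *Xlr3b*.

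In the edgeR fit over the 16 libraries of days 14 and 21, the log2 difference (Het minus WT, ± SE) was -2.84 ± 0.22 for *Gal*, -2.09 ± 0.34 for *Xlr3b*, -1.63 ± 0.25 for *Map3k21*, -1.46 ± 0.22 for *Bcan* and -1.10 ± 0.14 for *Gm12519*. These are the 5 largest falls among 88 genes that averaged 50 counts or more, had an adjusted p below 0.05 and showed no overlap between genotypes. The 5 genes were picked for large falls in these same libraries, so this order restates the choice. The adjusted p served here only to bound the list and is no test of the 5 genes. *Gm12519* is the last inside this order, and *1700087I21Rik* (-1.01) and *Peg10* (-0.98) are the next outside it. Over all 19845 genes tested, 8.87% were called lower (1761 against 1443 higher, or 1483 against 2466 with TMM and 1008 against 3289 with the total count) and the median difference was -0.05. Every Het library lay below every WT library for 0.524% of genes tested, a property the choice of the 5 genes used. At day 8, the log2 difference was -1.80 ± 0.46 for *Gal*, -1.76 ± 0.52 for *Bcan*, -1.21 ± 0.66 for *Xlr3b* and -1.13 ± 0.34 for *Map3k21*, and *Gm12519* was too low to be fitted. All Het libraries lay below all WT libraries at day 8 for *Gal*, *Map3k21* and *Bcan*, as for 3.61% of genes tested. At day 8 edgeR called 0% of 18191 genes in either direction (1815 with an unadjusted p under 0.05), whereas DESeq2 called 191 higher and 240 lower. With the replicate number as a block, edgeR called 105 higher and 177 lower at day 8, and 2823 genes lower in place of 1761 at days 14 and 21.

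The difference between genotypes was smaller in replicate 1 than in replicates 2 to 4 for 4 of the 5 genes at days 14 and 21. For *Gal*, the Het to WT ratio of mean RQ over days 14 and 21 was 0.211 in replicate 1 and 0.122 in replicates 2 to 4. The ratio was 0.586 against 0.241 for *Map3k21*, and 0.499 against 0.316 for *Bcan*. *Xlr3b* had a ratio of 0.447 in replicate 1 and 0.166 in replicates 2 to 4. *Gm12519* had 0.463 in both, although by day it was 0.299 and 0.698 in replicate 1 and 0.515 and 0.416 in replicates 2 to 4 (days 14 and 21). At day 8, replicate 1 alone had ratios of 0.830 for *Gal*, 0.787 for *Map3k21*, 0.602 for *Bcan* and 1.08 for *Xlr3b*. Each replicate 1 ratio rests on 1 library per genotype and day. The difference between these ratios was not tested.

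**Figure D2:**
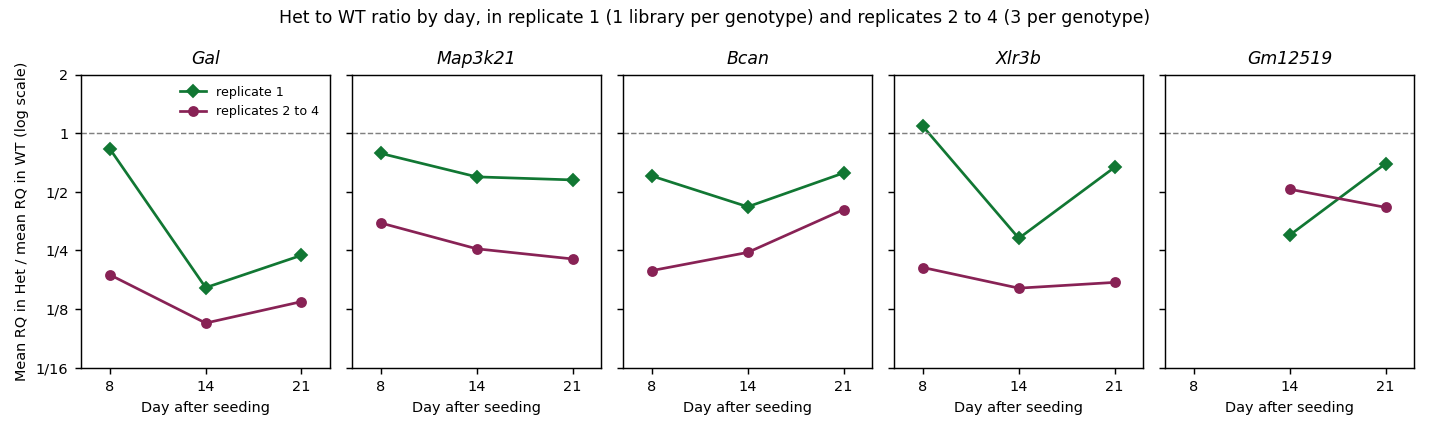
Ratio of mean RQ in Het to mean RQ in WT on a log axis by day after seeding, for replicate 1 (green diamonds, 1 library per genotype and day) and replicates 2 to 4 (purple circles, 3 per genotype and day). *Gal*, *Map3k21*, *Bcan* and *Xlr3b* lie nearer to 1 in replicate 1 on each day, up to 1.08 for *Xlr3b* at day 8, and *Gm12519* at day 8 is not drawn because it had 4 Het counts in all.

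Replicate 1 was also compared with replicates 2 to 4 within each genotype, with day in the fit (edgeR's quasi-likelihood test, Benjamini-Hochberg adjustment over all genes tested). Within Het, 4 of the 5 genes were higher in replicate 1, against 17.3% of 18858 genes tested (3265 higher and 1118 lower, or 1537 and 2385 with TMM). The median over all genes was 0.11, or -0.07 with TMM. *Xlr3b* had the largest log2 difference, 2.15 ± 0.27 (adjusted p = 0.000103). *Map3k21* was higher by 1.41 ± 0.16 (adjusted p = 6.15e-05) and *Gal* by 1.14 ± 0.22 (adjusted p = 0.00284). *Bcan* was higher by 1.11 ± 0.33 (adjusted p = 0.0299), a call lost with TMM (adjusted p = 0.0583) and DESeq2 size factors (adjusted p = 0.0583), and without Het replicate 1 of day 8 (0.127) or day 14 (0.0827). The *Gal* call was lost without Het replicate 1 of day 21, at 0.78 with an adjusted p of 0.102. *Gm12519* had -0.29 ± 0.28 (adjusted p = 0.501). Within WT, 0 of the 5 genes passed edgeR's test (1 with an unadjusted p under 0.05, and 0 with DESeq2), against 35.3% of 19159 genes called in either direction (5564 higher and 1201 lower, or 2033 and 3368 with TMM), with log2 differences from -0.34 for *Gm12519* to 0.36 for *Xlr3b* (adjusted p = 0.0926 for *Xlr3b*, the lowest of the 5). The sign of the *Gal* value changed without replicate 1 of day 21 (-0.18, adjusted p = 0.411). Leaving out single WT libraries brought *Gal* (0.59, adjusted p = 0.0203, without replicate 1 of day 14) and *Xlr3b* (0.52, adjusted p = 0.0426, without replicate 1 of day 21, and 0.42, adjusted p = 0.0421, without replicate 3 of day 21) past the threshold. The members were chosen on the same Het libraries, and whether the effect of the replicate differed between genotypes was not tested.

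Other transcripts moved with the replicates in Het. The summed RQ of 4 Y-linked genes (*Ddx3y*, *Eif2s3y*, *Kdm5d* and *Uty*), a measure of male cells in a pool, ranged from 214 to 255 in WT replicates 2 to 4 and from 89.4 to 153 in Het replicates 2 to 4, with no overlap. In replicate 1 it was 251 to 333 in WT and 176 to 252 in Het. All 4 were lower in Het at days 14 and 21, from -0.99 (*Uty*, adjusted p = 0.00321) to -0.70 (*Kdm5d*, adjusted p = 0.00903), and all 4 were higher in replicate 1 within Het and within WT. *Xist*, made from the inactive X of female cells, did not pass edgeR's test between genotypes at days 14 and 21 (log2 difference 0.11, adjusted p = 0.751). At day 8 its RQ was 352 to 505 in WT and 512 to 609 in Het (0.42, adjusted p = 0.263). *Xist* was lower in replicate 1 within WT (-0.56, adjusted p = 0.00261) and at -0.47 within Het (adjusted p = 0.117). Since *Xlr3b* is X-linked and the pools differed in Y-linked transcripts, those values stand beside its own, and their part in the *Xlr3b* difference was not tested.

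Chondrocyte and glial markers followed a similar course. The summed RQ of *Col2a1*, *Sox9*, *Col10a1* and *Matn3* in replicates 2 to 4 ranged at day 8 from 16943 to 21754 for WT and from 5001 to 15231 for Het. Later it ranged from 2772 to 10647 for WT and from 996 to 2140 for Het. In replicate 1 the genotypes were close, at 30562 in WT and 29736 in Het at day 8. At days 14 and 21, 1 of these 4 genes was called, *Sox9* (-0.70, adjusted p = 0.0242). All 4 were called higher in replicate 1 within Het, and 3 (*Col2a1*, *Col10a1* and *Matn3*) also within WT. Most of the sum was *Col2a1*. The sum of 10 glial markers in replicates 2 to 4 at days 14 and 21 was 110 to 173 in WT and 54.5 to 90.6 in Het, most of it *S100b*, which cartilage also makes. The defining glial genes were at or near 0, with 77 counts of *Sox10*, 17 of *Foxd3*, 1 of *Olig1* and 0 of *Olig2* over all 24 libraries. Neuronal *Snap25*, *Nefl*, *Elavl3*, *Elavl4* and *Rbfox3* had 6 to 16 counts each over 24 libraries, and the sum of 8 neuronal markers, mostly *Tubb3* and *Stmn2*, was 42.3 to 74.1 in WT and 62.3 to 91.6 in Het replicates 2 to 4 at days 14 and 21. For the macrophage markers *Cd68*, *Adgre1*, *Csf1r* and *Cd33*, the sum in replicates 2 to 4 was higher in Het on each day with no overlap, at 132 to 167 against 46.2 to 55.0 in WT at day 8, 1040 to 1119 against 245 to 420.4 at day 14 and 1673 to 2309 against 988 to 1171 at day 21. In replicate 1 the sum was lower in Het at day 8 (64.5 against 80.5 in WT) and at day 14 (627 against 717). At day 21 it was higher in Het there, at 1256 against 979. At days 14 and 21, 3 of these 4 genes were called higher in Het. All 4 were called lower in replicate 1 within Het, and 3 were called higher in replicate 1 within WT. The part of these cells in the fall of *Gal*, *Map3k21*, *Bcan* and *Xlr3b* was not tested.

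**Figure D3:**
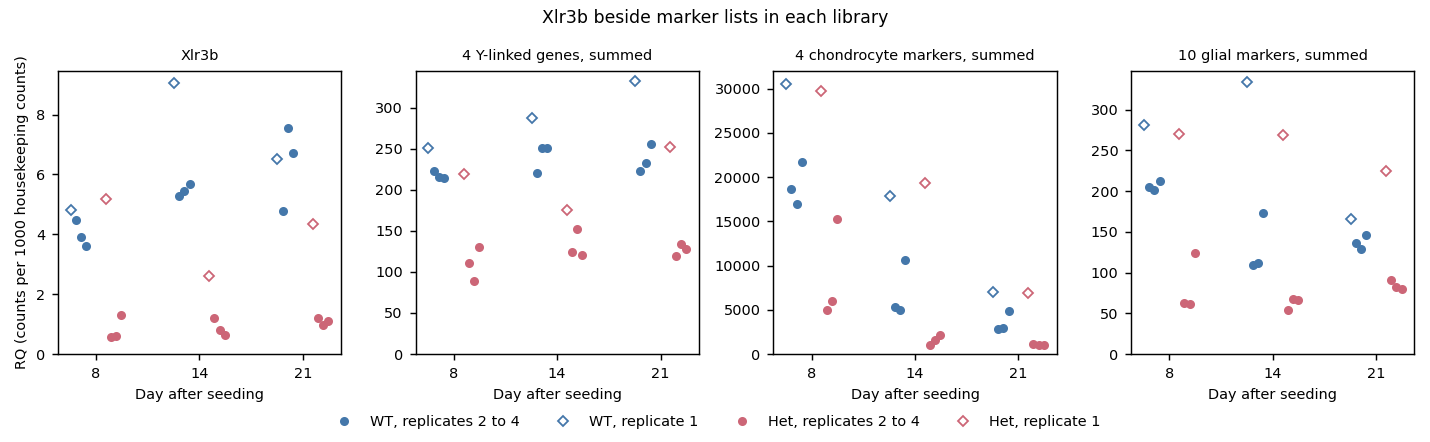
RQ (counts per 1000 housekeeping counts) of *Xlr3b* and the summed RQ of 4 Y-linked genes, 4 chondrocyte markers and 10 glial markers in each library by day after seeding, WT in blue, Het in red, replicate 1 as open diamonds. In each panel the Het libraries of replicates 2 to 4 are low (Y-linked sum 89.4 to 153 against 214 to 255 in WT) and Het replicate 1 lies above them.

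Of the other marker lists at days 14 and 21, *Col1a1*, *Col1a2*, *Runx2*, *Sp7* and *Bglap* were called lower in Het (5 of 7 OB markers), along with 0 of 4 osteocyte, 0 of 2 neuronal, 0 of 1 adipocyte and 0 of 1 fibroblast markers tested. Called higher were 1 of 6 glial (*Mbp*), 1 of 3 endothelial (*Kdr*) and 1 of 3 muscle markers (*Myh11*). *Bglap*, encoding osteocalcin, fell by 1.54 on the log2 scale (adjusted p = 0.0132), and *Col1a1* by 0.39 (adjusted p = 0.0442).

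In WT cultures, the 5 transcripts rose as the cells matured, from day 8 to days 14 and 21. *Gal* rose most, from a mean RQ of 0.846 ± 0.247 (SD, n = 4) at day 8 to 31.2 ± 8.06 (n = 8) at days 14 and 21, a log2 change of 5.16 ± 0.23 (SE, adjusted p = 9.7e-09). *Gm12519* rose by 4.33 ± 0.47 (adjusted p = 9.37e-06) and was near its limit of detection at day 8. *Bcan* rose by 2.54 ± 0.12 (adjusted p = 1.63e-08), and *Map3k21* by 1.57 ± 0.08 (adjusted p = 2.55e-08). *Xlr3b* rose by 0.60 ± 0.17 (adjusted p = 0.0115), a call lost when libraries were scaled by their total count (0.30, adjusted p = 0.128) and without replicate 3 (adjusted p = 0.0652) or replicate 4 (adjusted p = 0.0897). In this comparison, 37.4% of 19159 genes were called higher and the median change was 0.14, which was 0.01 with TMM and -0.16 with the total count. The 7166 higher and 3218 lower calls became 5382 and 5314 with TMM. The late WT libraries are among those on which the 5 genes were chosen. In exact two-sided permutation tests of RQ, p was 0.00404, the smallest that 8 against 4 libraries allows, for all but *Xlr3b* (p = 0.00808), and day 8 and later libraries overlapped for *Xlr3b* alone.

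Between days 14 and 21 in WT, *Bcan* fell by 0.39 on the log2 scale (SE 0.12, adjusted p = 0.0483), with 5.84% of 19159 genes called lower (1680 higher and 1118 lower, or 2705 and 1801 with the replicate number as a block). The fall was 0.37 with the replicate block (adjusted p = 0.0166), and the call was lost with no filter on low counts (adjusted p = 0.0768), without replicate number 2, 3 or 4 (adjusted p = 0.189, 0.145 and 0.115) and without any one of 9 WT libraries. The day 14 and day 21 libraries of *Bcan* did not overlap (exact two-sided permutation p = 0.0286, the smallest 4 against 4 allows). *Gal* had a change of 0.40 ± 0.18 (adjusted p = 0.167) and *Map3k21* of -0.16 ± 0.08 (adjusted p = 0.245). *Xlr3b* (0.02 ± 0.19, adjusted p = 0.979) and *Gm12519* (-0.0024 ± 0.39, adjusted p = 0.999) had no change larger than their error.

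*Gal*, *Bcan* and *Gm12519* also rose with time in Het cultures. The late Het libraries are among those on which the 5 genes were chosen for low counts, so these changes are shaped by that choice. Within Het, *Gal* rose from 0.269 ± 0.206 (SD, n = 4) to 4.63 ± 2.93 (n = 8), a log2 change of 4.13 ± 0.49 (adjusted p = 3.32e-05). *Bcan* rose by 2.85 ± 0.53 (adjusted p = 0.00101) and *Gm12519* by 5.77 ± 0.38 (adjusted p = 4.95e-07, from 4 counts in all at day 8). *Map3k21* had a change of 1.09 ± 0.45 (adjusted p = 0.0716), which passed the threshold with the replicate 1 covariate (1.06, adjusted p = 0.000174), without replicate 1 (1.03, adjusted p = 0.0014), without Het replicate 1 of day 8 (1.53, adjusted p = 0.0196) and with DESeq2 (1.09, adjusted p = 0.0279). The exact two-sided permutation test of *Map3k21* RQ gave p = 0.0485. *Xlr3b* had -0.29 ± 0.66 (adjusted p = 0.764), and 0.86 (adjusted p = 0.25) without Het replicate 1 of day 8. Higher calls made up 30.4% of 18858 genes tested (5731 against 1903 lower, or 3999 against 4017 with TMM). Whether the change with time differed between genotypes was not tested.

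**Figure D4:**
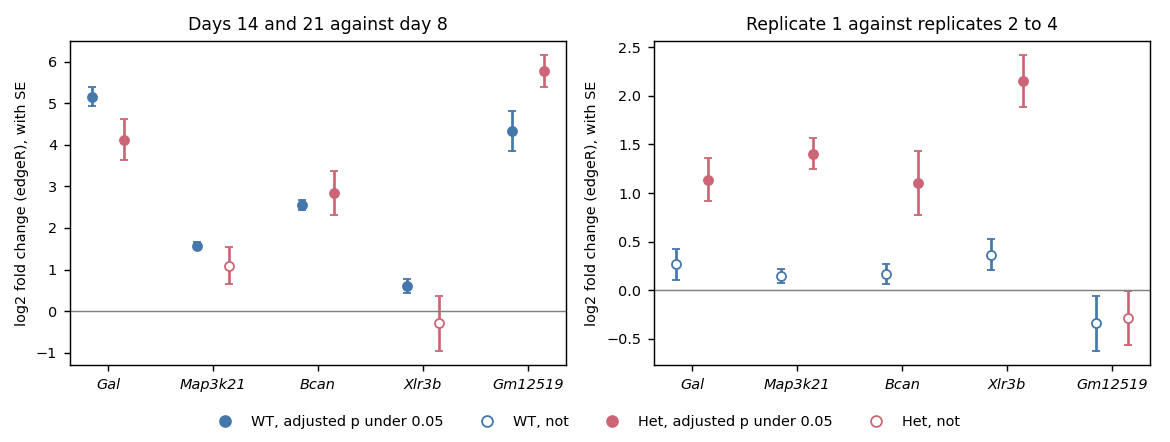
Log2 fold change with SE (edgeR) of the 5 genes within WT (blue) and within Het (red), for days 14 and 21 against day 8 (left) and replicate 1 against replicates 2 to 4 (right), filled where the adjusted p is under 0.05. *Gal* rose by 5.16 in WT and 4.13 in Het with time, and *Xlr3b* was 2.15 higher in replicate 1 within Het against 0.36 within WT.

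Per kilobase of exon, the genes could be set against each other, least surely for *Xlr3b*. All its exonic bases were used, although 56.6% of its 50-base stretches were shared with other genes. Its place below depends on how shared reads were counted, which is not given in the sources used here. In WT at day 14 the mean RQ per kb was 34.0 ± 1.88 (SD, n = 4) for *Gal*, 7.98 ± 1.02 for *Bcan*, 7.49 ± 0.378 for *Gm12519*, 3.38 ± 0.288 for *Map3k21* and 1.68 ± 0.474 for *Xlr3b*. *Bcan* and *Gm12519* differed by less than their spread. At day 8 *Bcan* (1.20 ± 0.201), *Xlr3b* (1.11 ± 0.142), *Map3k21* (1.08 ± 0.0673) and *Gal* (1.07 ± 0.314) differed by less than the larger of each pair's SDs. In Het at day 14, the order ran from *Gal* (4.03 ± 0.706) through *Gm12519* (3.44 ± 0.896), *Bcan* (2.36 ± 1.25) and *Map3k21* (1.18 ± 0.705) to *Xlr3b* (0.346 ± 0.237). Each neighbour in that order down to *Map3k21* differed from the one before it by less than the larger SD.

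Genes that share a pathway or family with the members were mostly not called. Of 63 such genes in 5 lists, 40 were abundant enough to test at days 14 and 21, and 5 were called (12.5%), against 16.1% of all genes tested, with a median log2 difference of -0.15. With the replicate block 12 were called. Without replicate 1 there were 22 calls, without replicate 3 there were 0, and without replicate 2 or 4 there was 1. At day 8, 0 of 36 passed edgeR's test (4 with an unadjusted p under 0.05), and 12 did without replicate 1. List counts with DESeq2 are not reported here. Over all genes at day 8, DESeq2 called 191 higher and 240 lower where edgeR called 0.

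Among the partners of galanin, the receptor genes were sparse. *Galr2* had a mean RQ of 3.86 ± 1.21 (SD, n = 8) in WT and 3.07 ± 1.28 in Het at days 14 and 21 (log2 difference -0.33 ± 0.16, adjusted p = 0.173), and it rose in WT with time by 1.85 (adjusted p = 9.35e-06). With the replicate block 1 gene of this list was called. *Galr1* and *Galr3* had 5 and 44 counts over all 24 libraries and *Galp*, a galanin-like peptide, 0. *Spx*, encoding the related peptide spexin, had -0.35 ± 0.15 (adjusted p = 0.119). Of 11 genes of prohormone cleavage and secretory granules, 7 were tested and 0 called by edgeR (1 with an unadjusted p under 0.05, and 1 called with the replicate block). *Cpe*, encoding carboxypeptidase E, had -0.45 ± 0.16 (adjusted p = 0.0625), and *Pam*, the amidating enzyme that matures galanin, -0.11 ± 0.07 (adjusted p = 0.32).

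For *Map3k21*, 14 of 15 genes of the mixed lineage kinase and JNK list were tested, and 2 were higher and 1 lower. *Map3k9*, encoding another mixed lineage kinase, was higher in Het, at 2.17 ± 0.983 against 1.20 ± 0.430 (SD, n = 8 each, log2 difference 0.88 ± 0.22, adjusted p = 0.0137). *Jun*, encoding a transcription factor phosphorylated by JNK, was higher by 0.27 ± 0.09 (adjusted p = 0.0424). *Map3k10* was lower, at -0.14 ± 0.05 (adjusted p = 0.0478). *Mapk8ip3*, a JNK scaffold with the highest counts of the list, had -0.12 ± 0.05 (adjusted p = 0.0799).

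Of the hyaluronan matrix list around *Bcan*, 13 of 16 genes were tested and 2 were lower, and 6 were called with the replicate block. *Hapln4*, encoding a link protein that joins lecticans to hyaluronan, averaged an RQ of 37.4 ± 5.86 over WT libraries and 24.7 ± 4.08 over Het libraries (SD, n = 8 each, log2 difference -0.59 ± 0.10, adjusted p = 0.00239). *Hapln3*, another link protein gene, fell by 0.57 (SE 0.19, adjusted p = 0.0458). *Acan*, the aggrecan gene of cartilage, had -0.96 ± 0.46 (adjusted p = 0.166), with 2.32 more on the log2 scale in replicate 1 within Het (adjusted p = 0.000212). *Tnc*, with the highest counts of the list, had -0.18 ± 0.18 (adjusted p = 0.534).

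The relatives of *Xlr3b* did not share its difference at the threshold. Of 16 genes of the *Xlr* superfamily 4 were tested and 0 called by edgeR (0 with an unadjusted p under 0.05). *Xlr3a*, which shares the most sequence with *Xlr3b*, averaged an RQ of 1.57 ± 0.472 over WT libraries and 1.80 ± 0.596 over Het libraries (SD, n = 8 each, log2 difference 0.20 ± 0.23, adjusted p = 0.617). *Xlr* had -0.16 ± 0.15 (adjusted p = 0.489) and *Sycp3* -0.47 ± 0.26 (adjusted p = 0.227). *Xlr4b* had -0.15 ± 0.32 (adjusted p = 0.802). *Xlr3c* had 29 counts over 24 libraries.

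Genes next to the members on the chromosome were examined as the 2 nearest tested genes on each side. Of these 20, 5 were called, against 16.1% of all genes tested. Beside *Gal*, 2 were called, *Cpt1a* higher (0.25, adjusted p = 0.00734) and *Lrp5*, a Wnt co-receptor gene 170 kb away, lower (-0.52, adjusted p = 0.0308). *Tesmin*, 2.09 kb from *Gal*, had 0.15 (adjusted p = 0.622), and *Ppp6r3* -0.08 (adjusted p = 0.281). Beside *Map3k21*, *Ntpcr* was higher (0.38, adjusted p = 0.00918), while *Kcnk1* had -0.20 (adjusted p = 0.153), *Gm45875* -0.22 (adjusted p = 0.117) and *Map10* -0.05 (adjusted p = 0.861). Beside *Bcan*, *Crabp2* (1.24, adjusted p = 0.0136) and *Gpatch4* (0.26, adjusted p = 0.0078) were higher, with *Nes* at 0.14 (adjusted p = 0.501) and *Naxe* at 0.03 (adjusted p = 0.753). Neither the neighbours of *Xlr3b* (*Xlr3a*, *Zfp185*, *Xlr4b* and *F8a*) nor *Klf4*, *Rad23b* and *Abitram* near *Gm12519* were called by edgeR, with log2 differences from -0.24 to 0.20.

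The 3 genes most like each member across the 24 libraries were found among 14890 genes averaging 50 counts or more, as the smallest root mean square difference between centred log2 profiles. *Gal* was nearest to *Camk2b* (0.54), *BC055402* (0.66) and *Frzb* (0.69), an antagonist of Wnt ligands whose mean RQ went from 19.2 in WT at day 8 to 291 at day 21, against 6.02 and 113 in Het. *Map3k21* was nearest to *Col11a2* (0.37), *Rab11fip4* (0.38) and *Klhl13* (0.38). *Bcan* was nearest to *Rom1* (0.50), *Hapln4* (0.51) and *Ptch1* (0.53). *Xlr3b* was nearest to *Aspg* (0.35), the Y-linked *Uty* (0.39) and *3830403N18Rik* (0.41), and *Uty* had a mean RQ of 33.2 in WT and 15.3 in Het at day 14. *Gm12519* was nearest to *Sema3b* (0.29), *Hid1* (0.29) and *Chst15* (0.31). Between the members themselves the difference ran from 0.50 (*Map3k21* and *Xlr3b*) to 1.47 (*Gal* and *Xlr3b*).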

How the data were processed

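PolyA RNA of 24 cultures was sequenced. The authors deposited counts per gene, not normalized; per the labels the reads were trimmed with cutadapt 2.5, aligned to mm10 with STAR 2.73a and counted with featureCounts 1.6.4 of Subread. Strand and multi-mapping settings are not given in the sources used here. Groups came from sample titles. The 5 genes and all lists were chosen with earlier results of these data known. Counts were scaled to 4 housekeeping genes, filtered with filterByExpr and tested with edgeR 4.0.16 (R 4.3.3, quasi-likelihood, Benjamini-Hochberg threshold 0.05), with DESeq2 1.42.0 and scipy 1.17.1 (exact permutation) as alternatives. Wells came from pooled pups, so p-values measure the spread between these wells. The fits were tested on simulated data, where 79% of 2-fold and 94% of 4-fold changes were recovered for Het against WT at days 14 and 21 (19525 genes). In the other comparisons, recovery of 2-fold changes ran from 63% (WT, day 21 against day 14) to 84% (WT, replicate 1). The simulated libraries were drawn as independent, with no shift common to replicate 1 beyond the changed genes, so these rates do not cover that feature of the data.

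Same-numbered libraries deviated together between WT and Het of 1 day (correlation 0.291 to 0.765 in 12 pairs, median -0.109 in 36 others) and between days within WT (0.349 to 0.704), so these were also fitted with the number as a block. Much of this is replicate 1 standing apart: with deviations taken within replicates 2 to 4 the 9 pairs had 0.0136 to 0.407 (median 0.204) between genotypes and -0.0571 to 0.255 (median 0.0359) between days within WT, where the numbers do not pair the libraries. The pairing comes from the data, as the labels do not say what a number shares. No 2 replicates agreed within sampling noise (lowest chi-square per degree of freedom 5.14 in 36 pairs). Named genes were the 5 members, their lists, the 2 nearest tested genes on each side (1 is not reported here) and the 3 most alike. Positions are from GENCODE M21, matching 54587 of 55335 identifiers. A 0 was given the limit of 3 counts, counting error only.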

Additional observations from a re-analysis of the deposited data

Results flagged for a closer look

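Of 30 groups of 4 libraries (5 genes, 6 groups), 7 had 1 library far from the other 3 by Dixon's test at the 95% level, where chance gives about 1 in 20. In Het at day 21, replicate 1 stood high for *Gal* (RQ 11.7), *Map3k21* (10.5) and *Xlr3b* (4.36). *Xlr3b* was also high in replicate 1 of Het at day 8 (5.19) and of WT at day 14 (9.04). The remaining libraries stood low: *Bcan* in WT replicate 4 at day 8 (3.65) and *Gm12519* in Het replicate 3 at day 21 (1.83).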

How the results depend on the processing

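Of single-gene values and medians, 855 kept their direction and side of the threshold or moved little, 21 lost the threshold and 9 gained it. A further 26 medians or untested values moved, and 21 single-gene values changed sign, all of them values that did not pass the test. Medians that changed sign are counted as moved or as moved little. Among these, with total count, the median went from -0.05 to 0.04 for Het against WT at days 14 and 21. It went from 0.14 to -0.16 for WT with time and from 0.16 to -0.13 for Het with time. Between WT days 14 and 21, *Xlr3b* had -0.0067 with total count and -0.15 to 0.22 with a replicate or library left out, and *Gm12519* 0.0074 with DESeq2, 0.00092 with the replicate block, 0.0076 with replicate 1 as covariate and -0.13 to 0.13 with a replicate or library left out. With libraries left out, *Xlr3b* in Het with time ran from -0.66 to 0.86, *Gal* for replicate 1 in WT from -0.18 to 0.59, and *Gm12519* for replicate 1 in Het from -0.80 to 0.053. Among Het against WT descriptions, the values that moved were those without replicate 1 or a Het library of it. Without replicate 1, *Map3k21* had -2.07 and *Xlr3b* -2.61 at days 14 and 21, and at day 8 *Gal* had -2.36, *Map3k21* -1.53, *Bcan* -2.32 and *Xlr3b* -2.27. The looser low-count filter for replicate 1 and the lists with replicate 1 as covariate or with a replicate left out were chosen after seeing the data. The cause of the changes was not tested.

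With TMM, DESeq2 size factors and total count, genes higher in Het at days 14 and 21 numbered 2466, 2693 and 3289 in place of 1443, and 1008 were lower with total count. For WT with time, lower calls numbered 5314, 5482 and 8210, and higher calls 3707 with total count. For Het with time, lower calls numbered 4017, 3904 and 6163, and higher calls 3163 with total count. For WT days 21 against 14, 1791 and 1764 were lower with the first pair of scalings. For replicate 1 in WT, 2033, 2499 and 3541 were higher and 3368 and 2715 lower. For replicate 1 in Het, 1537, 1670 and 1858 were higher and 2385, 1956 and 1697 lower. DESeq2 called 191 higher and 240 lower at day 8. With no filter 0 members were called between days 14 and 21 in WT.

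The replicate block gave 2823 lower at days 14 and 21, 105 higher and 177 lower at day 8, 2705 higher and 1801 lower between WT days 14 and 21, and 12 list genes. In Het with time, where numbers did not pair the libraries (lowest correlation 0.0288), it brought *Map3k21* past the threshold (adjusted p = 0.000847, edgeR); it changed no other call of a member. Replicate 1 as covariate gave 3014 lower, 268 higher and 432 lower at day 8, 3046 higher and 2085 lower between WT days, and 14 and 2 list genes.

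Leaving out a replicate or library gave 76 to 3307 higher and 63 to 4266 lower at days 14 and 21, 0 to 834 higher and 0 to 2595 lower at day 8, 2035 to 4052 lower in WT with time, 72 to 3423 higher and 23 to 1984 lower between WT days with 0 to 1 members, 3702 to 7956 higher and 1039 to 2374 lower in Het with time, 0 to 1 members for replicate 1 in WT, and 2076 to 4963 higher in Het. List genes called ran from 0 to 22 and, at day 8, 0 to 12. Depth limits *Gm12519* and *Gal* at day 8.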
